A study of Mus musculus with 92 samples.

Results

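The genes described are 9 enzymes that take ceramide and sphingosine apart or convert them to other lipids: Asah1, Asah2, Acer2, Acer3, Sphk2, Sgpp1, Sgpl1, Cerk and Ugcg. They were chosen by name, and all 9 were found among the 13441 genes of the deposited table. The table holds the quadriceps muscle of 92 DOz mice, an outbred stock derived from the Diversity Outbred population in which animals differ in the alleles they inherited. All animals were about 18 to 20 weeks old and had eaten only standard chow, so there was 1 group and no treated or mutant group. The study behind the series dealt with muscle ceramides of very long acyl chains and with insulin resistance. The question put to these 9 genes was how much their mRNA differed between animals and which other genes varied with them. No measure of lipids or insulin response was analysed here.

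Ceramide is a fatty acid joined to a sphingoid base. Ceramidases split it into a fatty acid and sphingosine, and the enzyme family is divided by the pH at which its members work: acid ceramidase in the lysosome, neutral ceramidase at the cell surface, and alkaline ceramidases in the Golgi and endoplasmic reticulum. Sphingosine is phosphorylated by sphingosine kinases to sphingosine-1-phosphate, a signalling lipid that phosphatases turn back into sphingosine and that a lyase cleaves irreversibly, which is the only exit from the sphingolipid pathway. Ceramide can also leave its pool by phosphorylation or by addition of glucose. In muscle, ceramide is known as a lipid that can interfere with insulin signalling.

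Values are log2 expression on a per-million scale, and the depth of each library is unknown. No 2 libraries were alike: over the 4186 pairs of libraries, the root mean square difference on the log2 scale was at least 0.521, with a median of 0.66. Fast fibre genes were abundant, with 9 of 9 markers in the table and a summed level of 91496 to 188163 in per-million units. Macrophage markers were present at a lower level, with 8 of 8 in the table and a summed level of 43 to 607 in the same units. In bulk tissue, fewer cells of a type and less RNA per cell cannot be told apart. Animal 84 (animals are numbered in accession order) stood apart. It had the highest macrophage sum, 607 against 43 to 336 in the others, and the lowest fast fibre sum, 91496 against 107351 to 188163. Its fibroblast sum of 2281 was the next to highest. It was also the highest of all animals in Myog and Ncam1, at 5.11 and 5.71 on the log2 scale, and in the embryonic myosin Myh3, at 8.35. Because this animal was also highest in 4 of the 9 genes, counts of associated genes and markers, and the calls turned by it, are also given without it.

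Among the ceramidases, Asah1 was the steadiest and the alkaline enzymes varied most. Asah1, acid ceramidase (ENSMUSG00000031591, chr8:41340197-41374773, minus strand, GRCm38), ranged from 3.45 to 4.67 with a median of 3.98, and its mean was 4.0 ± 0.21 (SD, n = 92). The highest animal was animal 84, and the next highest was at 4.37. Asah2, neutral ceramidase (ENSMUSG00000024887, chr19:31982597-32108211, minus strand), ranged from 1.98 to 4.48 with a median of 3.53 and a mean of 3.49 ± 0.37 (SD, n = 92). Its lowest animal lay apart, since the next lowest was at 2.59. Acer2, the Golgi alkaline ceramidase (ENSMUSG00000038007, chr4:86874396-86934822, plus strand), ranged from 0.32 to 3.43 with a median of 1.81 and a mean of 1.86 ± 0.73 (SD, n = 92), an 8.65-fold range between animals. Acer3, the alkaline ceramidase that acts on unsaturated ceramides (ENSMUSG00000030760, chr7:98206389-98321208, minus strand), ranged from 1.18 to 3.92 with a median of 2.36 and a mean of 2.36 ± 0.55 (SD, n = 92). The highest Acer3 animal was apart from the next, which was at 3.39.

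Of the 3 enzymes that handle sphingosine and its phosphate, the lyase had the widest range. Sphk2, the sphingosine kinase found largely in the nucleus and mitochondria (ENSMUSG00000057342, chr7:45709467-45718002, minus strand), ranged from 3.10 to 4.29 with a median of 3.75 and a mean of 3.76 ± 0.22 (SD, n = 92). Sgpp1, a phosphatase that returns sphingosine-1-phosphate to sphingosine in the endoplasmic reticulum (ENSMUSG00000021054, chr12:75714249-75735729, minus strand), ranged from 3.72 to 5.04 with a median of 4.25 and a mean of 4.26 ± 0.25 (SD, n = 92). Sgpl1, the lyase (ENSMUSG00000020097, chr10:61098642-61147703, minus strand), ranged from 2.62 to 4.64 with a median of 3.34 and a mean of 3.36 ± 0.32 (SD, n = 92). Animal 84 held the highest Sgpl1 value, and the next was at 4.09.

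Both enzymes that convert ceramide without splitting it had 1 animal far above the rest. Cerk, ceramide kinase (ENSMUSG00000035891, chr15:86139128-86186141, minus strand), ranged from 1.32 to 3.36 with a median of 2.35 and a mean of 2.35 ± 0.27 (SD, n = 92). Ugcg, glucosylceramide synthase (ENSMUSG00000028381, chr4:59189257-59222833, plus strand), ranged from 2.61 to 4.80 with a median of 3.34 and a mean of 3.36 ± 0.33 (SD, n = 92). The highest animal of both was animal 84, and the next highest reached 2.78 in Cerk and 4.08 in Ugcg.

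**Figure D1:**
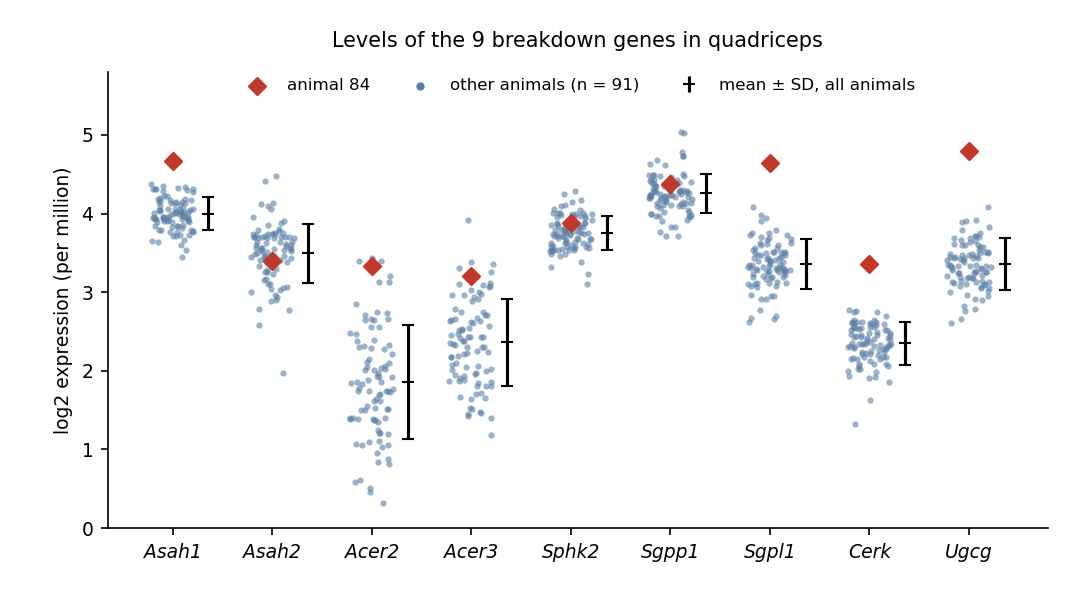
Log2 per-million expression of each of the 9 genes, 1 point per animal (n = 92), with the mean and SD of all animals as a bar and animal 84 as a red diamond. Animal 84 lies above all other animals in Asah1, Sgpl1, Cerk and Ugcg, and the points of Acer2 and Acer3 are the most widely scattered.

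Spread depends on abundance, so each SD was set against the SD that a smooth trend over all genes gives at the same mean. On a log2 scale of that ratio, the excess was 0.76 for Acer2, 0.56 for Acer3 and 0.39 for Asah2. Only 10.4% of all genes had a larger excess than Acer2, 16% a larger one than Acer3 and 23.4% a larger one than Asah2. Cerk had the smallest, at -0.46, which 84.6% of genes exceeded. Asah1 and Sphk2 were also below the trend, at -0.29 and -0.31, and Sgpp1, Sgpl1 and Ugcg lay near it, at -0.01, 0.11 and 0.15. The median SD of the 9 genes was 0.32, equal to the median over all genes.

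Levels of different genes can be compared only per length, here as the log2 of the per-million value per kilobase of annotated exon. This takes the deposited values as not already divided by length, which the sources used here do not state. Asah1 led at 2.23, above Sgpp1 in 89 of 92 animals. Sgpp1 at 1.76 and Sphk2 at 1.70 did not differ beyond their spread, with Sgpp1 the higher in 52 animals. Ugcg at 0.98 and Sgpl1 at 0.74 came next and were also within the spread of their difference, as were Cerk at 0.08 and Asah2 at -0.05. The alkaline ceramidases were lowest, Acer2 at -0.98 and Acer3 at -1.58, and the gap between Asah2 and Acer2 held in 76 of 92 animals. The order above the alkaline ceramidases depends on the length used. With the longest transcript, Asah1 and Sgpp1 were both at 2.52. With the median length of the coding transcripts, Sgpl1 moved to the top at 3.70 and Asah1 followed at 3.31, whereas Acer3 stayed lowest and Acer2 next to it.

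The numbers that end the sample titles fall into 5 runs, whose meaning the labels do not give. None of the 9 genes differed between these runs by limma's F test with Benjamini-Hochberg adjustment, where 2 of 13441 genes (0.0149%) did. At an unadjusted p under 0.05 there was 1 of the 9, where 8.33% of all genes were. This was Sphk2, with run means of 3.69 to 3.91 (adjusted p = 0.583).

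Of the 36 pairs of the 9 genes, 24 had a positive Pearson's r over the 92 animals and 12 a negative r, with a median of 0.0631 and a range from -0.221 to 0.434. A pair was counted as associated when limma passed an adjusted p of 0.05, over all genes tested, with either gene as the predictor of the other. That held for 5 of 36 pairs (13.9%), and 12 pairs (33.3%) had an unadjusted p under 0.05. The unadjusted count and the median r were not taken without animal 84. In the 9 fits over all genes, where a gene has to pass in 1 fit and not in both, the median share was 3.85% past the adjusted threshold and 18.5% at an unadjusted p under 0.05. All 5 were positive, and without animal 84 only 1 of them passed.

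That pair was Acer2 and Sgpl1, the Golgi ceramidase and the lyase. Their r was 0.434 (permutation p = 6e-05) and their rho 0.406 (permutation p = 0.00012), and the larger of the limma adjusted p-values was 0.00243. Within the 5 runs r was positive in all, from 0.0593 to 0.616. It was 0.389 without animal 84 (adjusted p = 0.0142) and 0.484 without the 2 animals farthest from the median of Acer2. Sgpl1 was 0.14 higher on the log2 scale per SD of Acer2 (SE 0.03).

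Both genes also varied with macrophage markers, of which 7 of 8 rose with Acer2 and 8 of 8 with Sgpl1. Over all genes the shares rising were 2.52% and 9.29%. Without animal 84, 3 of 8 rose with Acer2 and 8 of 8 with Sgpl1. With the scores of the 8 marker lists in the fit, the pair did not pass, and 0 of 36 pairs did. With 3 principal components as covariates 0 pairs passed as well.

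The other 4 pairs that passed all joined genes in which animal 84 was highest. Sgpl1 and Ugcg had r = 0.349 (permutation p = 0.00097) and rho = 0.212 (permutation p = 0.043), and r was 0.189 without that animal. For Cerk and Ugcg, r was 0.324 (permutation p = 0.00253) and rho 0.198 (permutation p = 0.0576), and r without the animal was 0.175. Asah1 and Ugcg had r = 0.321 (permutation p = 0.00207) and rho = 0.17 (permutation p = 0.104), with 0.195 without it. Asah1 and Sgpl1 had r = 0.315 (permutation p = 0.0025) and rho = 0.184 (permutation p = 0.0781), with 0.2 without it. Their adjusted p-values in limma without animal 84 were 0.439, 0.528, 0.428 and 0.257 in that order. Leaving out the 2 farthest animals gave r of 0.185, 0.1, 0.195 and 0.184.

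The pair Acer3 and Sgpl1 passed in 1 of its 2 fits. Its r was 0.327 (permutation p = 0.00137) and its rho 0.376 (permutation p = 0.00018), positive in all 5 runs, with adjusted p = 0.0126 where Sgpl1 was the predictor and 0.203 where Acer3 was. Without animal 84 these were 0.0498 and 0.438. The ceramidases themselves were not associated with each other in any pair. Their r values were -0.0967 for Asah1 and Asah2, 0.127 for Asah1 and Acer2, 0.165 for Asah1 and Acer3, -0.0181 for Asah2 and Acer2, 0.0664 for Asah2 and Acer3, and -0.0264 for Acer2 and Acer3. The lowest r of all, -0.221, was that of Sphk2 and Ugcg (adjusted p = 0.643).

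**Figure D2:**
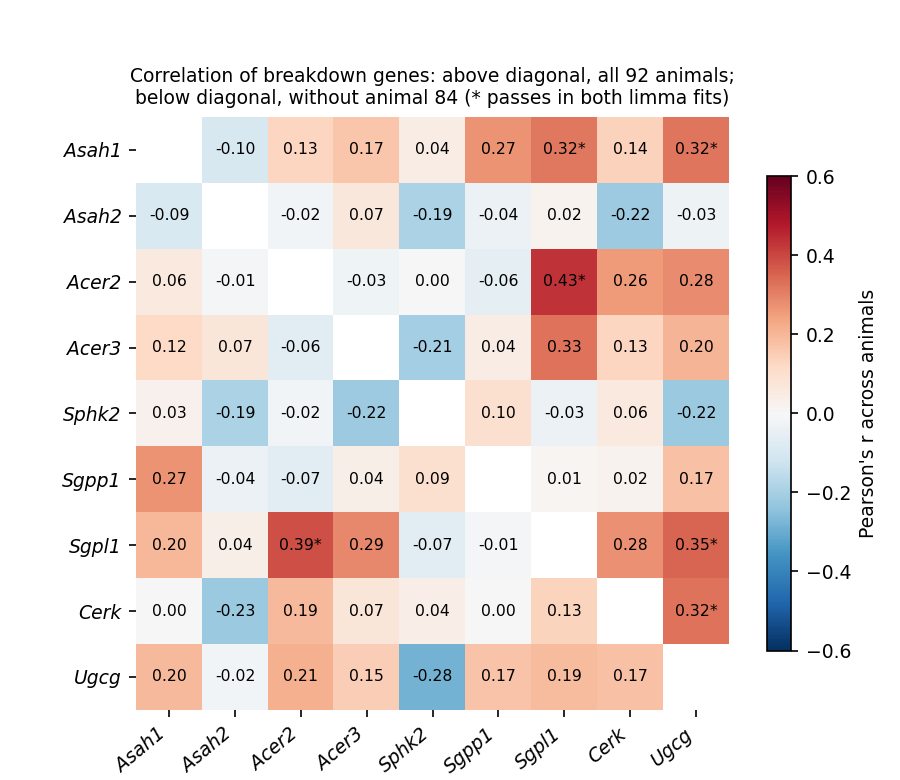
Pearson's r of each pair of the 9 genes over the animals, with all 92 animals above the diagonal and without animal 84 below it; an asterisk marks pairs that passed limma in both fits. The 5 asterisks above the diagonal become 1 below it, for Acer2 and Sgpl1.

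**Figure D3:**
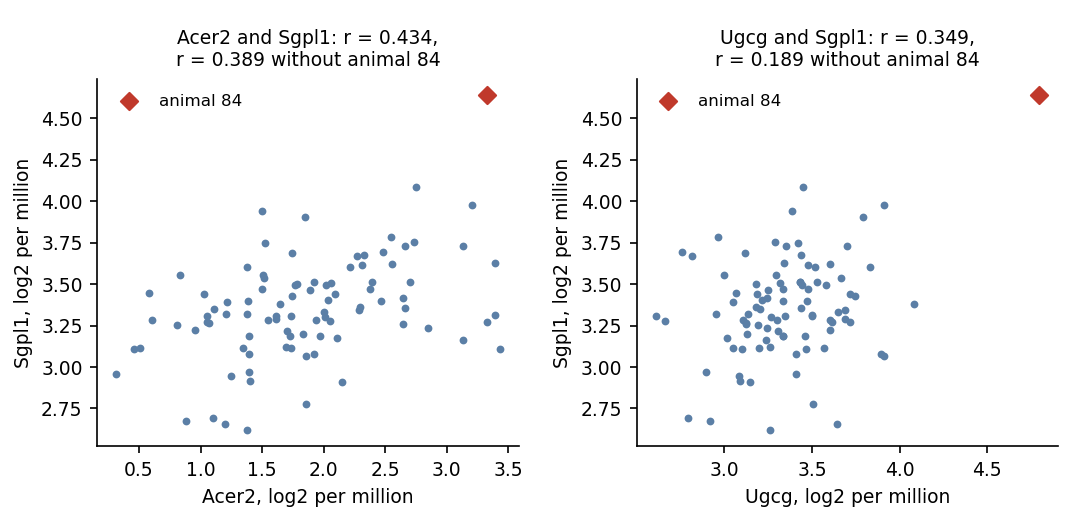
Log2 per-million expression of Sgpl1 against Acer2 (left) and against Ugcg (right), 1 point per animal, with animal 84 as a red diamond. On the left r is 0.434 with and 0.389 without that animal, and on the right 0.349 and 0.189.

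The promoters of Acer2 and Sgpl1 are shown because theirs was the pair that stayed associated without animal 84. They are the 250 bases before the start given by RefSeq on GRCm38.p6, 5′ to 3′ in the direction of the gene, at chr4:86874164-86874413 on the plus strand for Acer2 and chr10:61147685-61147934 on the minus strand for Sgpl1. Capitals mark each GC box, GGGCGG on either strand.
Acer2: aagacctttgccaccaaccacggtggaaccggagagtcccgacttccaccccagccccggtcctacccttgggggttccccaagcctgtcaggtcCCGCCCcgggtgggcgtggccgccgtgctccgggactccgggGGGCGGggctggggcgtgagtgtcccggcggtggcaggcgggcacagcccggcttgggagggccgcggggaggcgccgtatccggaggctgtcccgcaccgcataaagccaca
Sgpl1: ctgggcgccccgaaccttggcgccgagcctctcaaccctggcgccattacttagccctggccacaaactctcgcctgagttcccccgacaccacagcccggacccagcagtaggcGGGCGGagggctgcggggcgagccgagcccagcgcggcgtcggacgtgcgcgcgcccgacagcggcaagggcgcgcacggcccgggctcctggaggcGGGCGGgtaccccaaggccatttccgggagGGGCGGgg
Both stretches are rich in G and C, at 73.2% and 74.8%, with 2 GC boxes in that of Acer2 and 3 in that of Sgpl1. RefSeq windows of 300 bases, from 250 before to 50 after the start, were found for 8 of the 9 genes, all but Asah1. The GC box was in 5 of these 8, against 35.7% of 32851 promoters of the same length. The CCAAT box (CCAAT) was in 2 of 8, against 37.4%, and neither the E-box core (CACGTG, in 7.15% of promoters) nor the TATA box (TATAAA, in 13.6%) was in any. These motifs were searched on both strands, and none of them contains another. A match is a description of the letters in the window only.

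To see what varied with each gene, every other gene was fitted on its standardised level with limma, and a gene is said to rise or fall with it where the adjusted p was under 0.05. A slope is a difference on the log2 scale per SD of the predictor. Beside the 36 pairs, 72 relations with single genes were looked at by rule and 8 more, with Acer3, after their values were seen. Further genes of the lists are named in addition, mostly because they had passed. Adjusted p-values are over all 13440 genes of each fit. Genes given as highest or lowest were picked by r, so their permutation p-values do not allow for that choice.

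Most fast fibre markers fell with Asah1, and a few genes of the lysosome, the organelle in which its product works, rose with it. In all 790 of 13440 genes (5.88%) were associated, 468 rising (3.48%) and 322 falling (2.4%). Of 22 lysosomal genes 5 rose, among them Lamp2, Ctsb and Lipa, and Mcoln1, a lysosomal calcium channel, fell. The median slope of that list was 0.025, against 0.004 over all genes, and it was 0.011 without animal 84. Lamp2, a protein of the lysosomal membrane, had the highest r of any eligible gene, 0.52 (permutation p = 1e-05, the smallest 100000 resamples can give), with rho 0.491 (permutation p = 1e-05). Its r was 0.508 once the 2 animals with the most extreme Asah1 were left out, and 0.209 to 0.747 inside the runs. Flrt2, a cell adhesion protein, followed at 0.506 with rho 0.536. Sub1, a transcription cofactor, was lowest at -0.496 with rho -0.415. All 3 also passed without animal 84, with adjusted p-values of 0.00708, 0.00467 and 0.00708. Of 9 fast fibre markers 7 fell with Asah1, among them Tnnc2 and Tnnt3 with r of -0.483 and -0.489. Macrophage markers rose in 4 of 8 and fibroblast markers in 3 of 8. Without animal 84 there were 473 associated genes (3.52%), with 1 of 22 lysosomal genes rising (Lamp2), Mcoln1 falling, 5 of 9 fast fibre markers falling, 1 of 8 macrophage markers and 2 of 8 fibroblast markers rising. With the marker list scores in the fit 6 genes remained. Lamp2, Flrt2 and Sub1 did not pass there, with slopes of 0.06, 0.11 and -0.05 against 0.10, 0.17 and -0.10. Flrt2 also did not pass with 3 principal components as covariates (0.12).

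Asah2 followed a set of genes with no marker list in it. It had 495 associated genes (3.68%), 380 rising (2.83%) and 115 falling (0.856%), and 0 markers of the 8 cell type lists passed. The highest r were those of Mtmr1, a phosphoinositide phosphatase, at 0.549 (rho 0.407), and of Prkar2a, a regulatory subunit of protein kinase A, at 0.538 (rho 0.449). The lowest was that of Ranbp1, a partner of the nuclear transport GTPase Ran, at -0.561 (rho -0.531). Each of these had a permutation p of at most 0.00012 and the same sign in all 5 runs. From the ceramide pathway Cert1, which carries ceramide from the endoplasmic reticulum to the Golgi, rose with Asah2 with r = 0.363 (permutation p = 0.00049), rho = 0.239 (permutation p = 0.0223) and adjusted p = 0.0198. Of 20 insulin signalling genes all had a positive slope, with a median of 0.055 against -0.001 over all genes, and 2 passed, Pdpk1 (r = 0.341) and Gsk3b (r = 0.371). Of the clock genes Nr1d2 passed (r = 0.396). Leaving out animal 84 gave 520 genes, but leaving out the 2 animals farthest from the median of Asah2 gave 8, all 8 among the 495. The r values without them were 0.454 for Mtmr1, 0.457 for Prkar2a, -0.518 for Ranbp1 and 0.224 for Cert1. Cert1 did not pass in that fit (slope 0.06 against 0.10), nor with 3 principal components (0.05) or the marker list scores (0.07). The insulin signalling and clock genes were not looked at without these 2 animals, so whether their slopes rest on them was not tested.

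Acer2 had 517 associated genes (3.85%), with 2.52% rising and 1.32% falling. The most like it were Fam117b at r = 0.593 (rho 0.51) and Sema6b, a semaphorin, at r = 0.587 (rho 0.581), each with a permutation p of 1e-05, and the most unlike was Tpm1, a tropomyosin of the thin filament, at r = -0.472 (rho -0.424). From the sphingosine-1-phosphate genes, 2 of 11 rose: S1pr1, a receptor for this lipid, with r = 0.478 (permutation p = 1e-05) and rho = 0.47 (permutation p = 2e-05), and Abca1, a lipid exporter, with r = 0.419. S1pr1 kept an adjusted p of 0.000564 without animal 84 and was positive in all 5 runs. With 3 principal components S1pr1 did not pass (slope 0.15 against 0.17), and with the marker list scores its slope was 0.22. Tpm1 passed with neither set of covariates, at -0.04 and -0.03 against -0.10. Of 8 macrophage markers 7 rose, and of 9 fast fibre markers 5 fell. Without animal 84 these were 3 and 2, and 363 genes were associated. Fabp4 and Cidea, both adipocyte genes, rose among 10 of that list, and without animal 84 the count was 3 of 10. The clock gene Per1 rose with r = 0.434 and Nr1d1 fell with r = -0.354, and without animal 84 their adjusted p-values were 0.00574 and 0.0598, so the call of Nr1d1 was lost. Of 11 p53 target genes Cdkn1a, an inhibitor of the cell cycle, rose with r = 0.402.

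Sphk2 was associated with 0 of 13440 genes (0%) by limma, and 1009 genes, or 7.51%, had an unadjusted p under 0.05. Of 15 clock genes 9 were among those, a list singled out after its values were seen. The largest r were -0.364 for Nr1d2 (adjusted p = 0.275) and -0.338 for Per2 (adjusted p = 0.403), while Cry1 and Bmal1 had r of 0.284 and 0.25. The exons of Sphk2 overlap those of Dbp, a clock output gene on the opposite strand, over 539 bases or 13% of its exon length, and those of Rpl18 over 373 bases or 8.97%. Whether strand was used in counting is not given in the sources used here, so reads in these stretches cannot be assigned with certainty. Dbp varied widely, at 4.68 ± 0.92 (SD, n = 92), and its r with Sphk2 was -0.293 (permutation p = 0.00484) with rho -0.248 (permutation p = 0.0172) and adjusted p = 0.474. For Rpl18 r was 0.0897 (permutation p = 0.395).

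Sgpp1 had 182 associated genes (1.35%), of which 149 rose (1.11%) and 33 fell (0.246%), and 185 without animal 84. Ggct, an enzyme of glutathione breakdown, had r = 0.577 (rho 0.52) and Rab1a, a GTPase of traffic from endoplasmic reticulum to Golgi, r = 0.539 (rho 0.52). Both had a permutation p of 1e-05 and were positive in all runs. Chpf2, an enzyme of chondroitin synthesis, was lowest at r = -0.482 (rho -0.359). Plpp1, a lipid phosphate phosphatase of the plasma membrane, rose as 1 of 11 genes of the sphingosine-1-phosphate list, with r = 0.364 (permutation p = 0.00035), rho = 0.39 (permutation p = 0.00018) and adjusted p = 0.0326. With 3 principal components as covariates Plpp1 did not pass, at a slope of 0.06 against 0.09. Irs1 and Rab10, an adaptor of the insulin receptor and a GTPase of GLUT4 traffic, rose among 20 insulin signalling genes, with r of 0.399 and 0.395. No cell type marker passed with Sgpp1.

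Sgpl1 had the most associated genes of the 9, 2212 (16.5%), of which 1249 rose (9.29%) and 963 fell (7.17%), and they included every macrophage marker. The highest r were those of Ptprc, the pan-leukocyte phosphatase CD45, at 0.683 (rho 0.567) and of Lcp1, an actin-bundling protein of leukocytes, at 0.677 (rho 0.621), each with a permutation p of 1e-05. Both stayed at 0.613 without animal 84. Dcun1d2 was lowest, at -0.582 (rho -0.543). All 8 macrophage markers rose, with a median slope of 0.377 against -0.003 over all genes, and all 8 rose without animal 84 too, with a median of 0.312. Fibroblast markers rose in 6 of 8, including Col3a1 with r = 0.591. Without animal 84 the count was again 6 of 8, but Lum was not among them (adjusted p = 0.074). Fast fibre markers fell in 6 of 9, and in 3 of 9 without it. Without animal 84, 1273 genes (9.47%) were associated, 1175 of them shared. With the 8 marker list scores in the fit 1 gene passed, and with the leading 3 principal components 0.

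Within the lipid pathways, Sgpl1 rose with Cers6, a ceramide synthase (r = 0.542, rho 0.404), and with B4galt6, the synthase of lactosylceramide (r = 0.517, rho 0.427). It also rose with Abca1 (r = 0.433, rho 0.358) and with Lipa, lysosomal acid lipase (r = 0.672). Each passed without animal 84, with adjusted p-values of 0.000453, 0.00192, 0.00456 and 3.74e-06. Cers6 is weakly expressed, with a mean log2 level of 0.65. With 3 principal components the slopes of Cers6 and Abca1 were 0.16 and 0.10, against 0.38 and 0.20, and neither passed. With the marker list scores they were 0.24 and 0.06, and again neither passed. Of 22 lysosomal genes 6 rose and 3 fell, and without animal 84 these were 4 and 1. Of 15 glycosphingolipid genes 5 rose, and 2 without that animal. Smpd1, acid sphingomyelinase, fell with r = -0.302 and had an adjusted p of 0.141 without animal 84. Of 20 insulin signalling genes Pik3r1 rose, and Irs2, Slc2a4 (GLUT4), Gys1 and Rictor fell. Without animal 84, Pik3r1 and Rictor passed, and Slc2a4 had an adjusted p of 0.0999.

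Cerk and Ugcg gave calls that depended on animal 84. Cerk had 565 associated genes (4.2%), with 2.63% rising and 1.57% falling, and 16 without that animal. Drp2, a dystrophin-related protein, had r = 0.516 (rho 0.339) and Itgb2, the beta-2 integrin of leukocytes, r = 0.506 (rho 0.357), with 0.439 and 0.419 without it. Drp2 was positive in 3 of 5 runs and Itgb2 in all 5. Tmem185a was lowest at r = -0.475 (rho -0.326), and its adjusted p went from 0.00267 to 0.0657 without that animal. Macrophage markers rose with Cerk in 8 of 8, and in 0 of 8 without the animal, when all 8 slopes were still positive and their median was 0.201 against 0.274. Ugcg had 677 associated genes (5.04%), with 2.54% rising and 2.5% falling, and 7 without the animal. The most like it were Zfp948, a zinc finger protein, at r = 0.527 (rho 0.468), and Lnpep, the aminopeptidase that travels with GLUT4 vesicles, at r = 0.507 (rho 0.355). Pabir1 was lowest at r = -0.51 (rho -0.348). Without the animal only Zfp948 of these passed, at an adjusted p of 0.045. Macrophage markers rose with Ugcg in 4 of 8 and Schwann cell markers fell in 3 of 8, and 0 of either list passed without the animal. Their median slopes then were 0.108 against 0.213 for macrophage and -0.082 against -0.095 for Schwann cell markers. Both genes rose with Cers6 and B4galt6, with r of 0.349 and 0.389 for Cerk and 0.39 and 0.422 for Ugcg. Their adjusted p-values without the animal lay between 0.195 and 0.324. Leaving out the 2 animals farthest from the median of each gene left 0 associated genes for either.

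**Figure D4:**
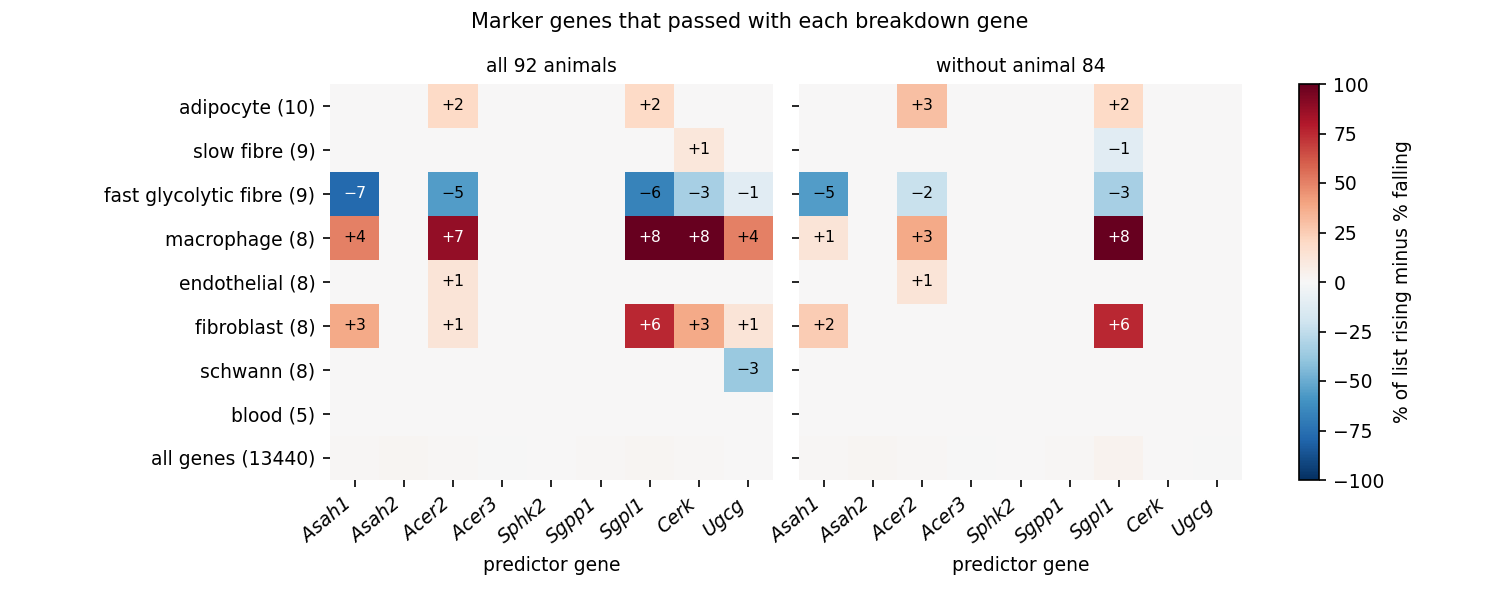
Marker genes that rose (+) or fell (−) with each of the 9 genes, for 8 cell type lists and all genes, with all 92 animals on the left and without animal 84 on the right; the number in brackets is the list size and colour is the percent rising minus the percent falling. For Sgpl1, 8 of 8 macrophage and 6 of 8 fibroblast markers rose in either panel, and Cerk goes from 8 of 8 macrophage markers to 0.

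Over all 92 animals, the genes associated with Acer3 all lay near it. Only 9 genes passed with it (0.067%), and all 9 were on chromosome 7 within 10 Mb of Acer3, a window that held 134 genes of the 1025 on that chromosome. In this window 6.72% of genes were associated. For Asah1 the share in the window was 9.84% (6 of 61 genes) against 5.88% over all genes. For Acer2 it was 5.13% (2 of 39) against 3.85%, and for Sgpl1 24.2% (23 of 95) against 16.5%. These shares were much nearer to those over all genes than that of Acer3. The share in the window was below that over all genes for Asah2, Sgpp1, Cerk and Ugcg, and 0% in both for Sphk2. Without animal 84 the window counts went from 6 to 5 for Asah1, from 23 to 16 for Sgpl1, from 9 to 1 for Cerk, from 2 to 0 for Ugcg and from 3 to 4 for Asah2, and Acer2 and Acer3 stayed at 2 and 9. These 9 genes were singled out once their values were known.

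Of these 9 genes 7 fell with Acer3 (0.0521% of all genes) and 2 rose (0.0149%). Tmem126b, an assembly factor of mitochondrial complex I, lay 7.79 Mb away and had r = -0.521 (permutation p = 1e-05) with rho = -0.449 (permutation p = 2e-05) and adjusted p = 0.000797. Within runs its r went from -0.79 to 0.146, negative in 4 of 5. Aamdc, 0.699 Mb away, had r = -0.508 (rho -0.474), and Plekhb1, 2.39 Mb away, r = -0.503 (rho -0.489), both with adjusted p = 0.000829. Aamdc was negative in all 5 runs and Plekhb1 in 4 of 5. Their log2 levels were 4.51 ± 0.50, 5.85 ± 0.28 and 5.65 ± 0.52 (SD, n = 92). The remaining falling genes were Gm10605 at r = -0.445, Gm10602 at -0.425, Or51e2 at -0.416 and Trim12c at -0.414. Myo7a, an unconventional myosin 0.179 Mb away, rose with r = 0.422 (rho 0.388, adjusted p = 0.0393) and Trim34a, 5.99 Mb away, with r = 0.431 (rho 0.464, adjusted p = 0.0393). None of the 9 shares exon bases with Acer3, and the nearest annotated neighbours in the table, Capn5 and Tsku, did not pass (r = 0.222 and -0.0418). Or51e2, Trim34a and Myo7a are weakly expressed, with mean log2 levels of 0.45, 0.24 and 0.96.

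All 9 passed without animal 84, together with 1 gene outside the window. With the title-number run as a covariate, and also without the 2 animals with the most extreme Acer3, 3 genes passed, which were Tmem126b, Plekhb1 and Aamdc. With the run as a covariate the slopes of the 6 others moved little, for example from -0.71 to -0.70 for Or51e2, while Myo7a stayed at 0.37 and Trim34a went from 0.32 to 0.29. With the marker list scores in the fit 9 genes passed, all within the window, and 7 of them were among the original 9. Myo7a and Trim34a did not pass there.

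**Figure D5:**
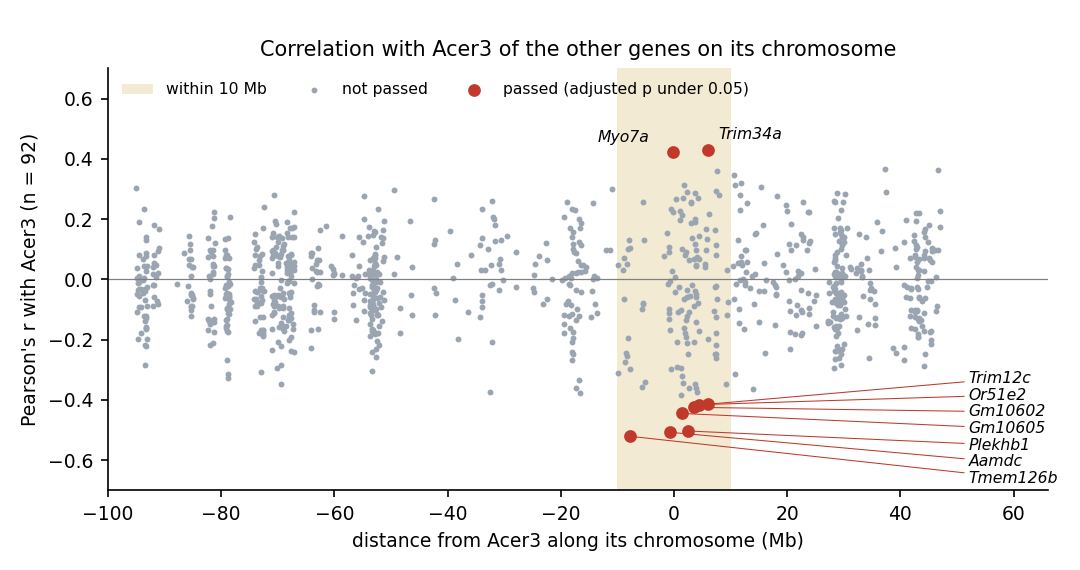
Pearson's r with Acer3 over 92 animals of each other gene on its chromosome, against distance from Acer3 in Mb; red points passed limma at an adjusted p under 0.05 and shading marks 10 Mb on either side. The 9 red points, 7 below and 2 above 0, all lie inside the shaded band.

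The synthases that make ceramide for these enzymes mostly did not pass with them. Cers1, the main ceramide synthase of muscle fibres (4.22 ± 0.31, SD, n = 92), passed with 0 of the 9 genes in limma, and its r ranged from -0.266 with Ugcg to 0.0386 with Asah2. The r with Cerk was -0.261 (permutation p = 0.012, adjusted p = 0.119) and that with Ugcg had a permutation p of 0.0105 and an adjusted p of 0.103. Cers2, the synthase of very long-chain ceramides (4.34 ± 0.21, SD, n = 92), passed with Sgpl1 only, with r = 0.339 (permutation p = 0.00109), rho = 0.347 (permutation p = 0.00103) and adjusted p = 0.011. It was 0.07 higher on the log2 scale per SD of Sgpl1. Without animal 84 the adjusted p was 0.0452 and r 0.301, and without the 2 farthest animals r was 0.266. In that last fit the slope was 0.05 and did not pass, nor did it with 3 principal components (0.02) or the marker scores (0.04). Within runs r went from -0.231 to 0.597, positive in 4 of 5.

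Other genes of the lipid pathways passed with some of the 9. Degs1, the desaturase that completes ceramide synthesis, rose with Asah1 with r = 0.329 (permutation p = 0.00148) and rho = 0.309 (permutation p = 0.00286), and its adjusted p was 0.0348 with and 0.0453 without animal 84. Plekha8, a glucosylceramide transfer protein, rose with Asah1 as well, with r = 0.331 and adjusted p-values of 0.0321 and 0.0453. Neither gene passed without the 2 animals with the most extreme Asah1, or with principal components or marker scores as covariates, and Plekha8 did not pass with the title-number run as a covariate. In these fits the slope was 0.04 to 0.06 for Degs1, against 0.07, and 0.09 to 0.11 for Plekha8, against 0.12. Cers6, at a mean log2 level of only 0.65, rose with Acer2 with r = 0.345 (adjusted p = 0.026, and 0.0943 without animal 84). Of the 13 de novo genes in the table, 1 rose with Asah1, 1 with Acer2, 3 with Sgpl1, 1 with Cerk and 1 with Ugcg, and none fell with any of the 9. The shares of all genes rising in these fits were 3.48%, 2.52%, 9.29%, 2.63% and 2.54%. Without animal 84 these counts were 1 with Asah1, 0 with Acer2, 2 with Sgpl1, 0 with Cerk and 0 with Ugcg.

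The immediate neighbours of the 9 genes did not pass with them. These 18 neighbouring genes had r between -0.293 (Dbp with Sphk2) and 0.279 (Sgms1, a sphingomyelin synthase beside Asah2, adjusted p = 0.0934). Sgms1 was at 5.89 ± 0.29 (SD, n = 92), and its permutation p with Asah2 was 0.0068.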

How the data were processed

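Polyadenylated RNA of 92 quadriceps muscles was sequenced. The deposited table holds log2 values, and per the submitters' processing notes bcl2fastq, MultiQC, kallisto 0.50.1, edgeR and the build mm10 were used, without their roles. The exact scaling is not given in the sources used here: 2 raised to each value summed to 898071 to 1140761 per animal, so the scale is close to a per-million one. Of 13456 lines, 15 repeats were removed. The members and gene lists were chosen with earlier results of these data known. Slopes were fitted with limma 3.58.1 (R 4.3.3; trended empirical Bayes; Benjamini-Hochberg over all genes), a script tested on simulated data. Correlations used two-sided permutation tests of 100000 resamples (scipy 1.17.1). Genes were named by rule: all members, pairs that passed, the 2 highest and 1 lowest r at a mean log2 of 1 or more, Cers1, Cers2, the leading gene of each sphingolipid list, and neighbours. Genes from the cell type, lysosome, clock, p53 and insulin lists were named in addition. Coordinates and exon lengths come from GENCODE on GRCm38, the same assembly as mm10. Alternatives took the title-number run, 3 principal components or 8 marker list scores as covariates, left out the 2 farthest animals, used log2(value + 1), or dropped genes with a mean under 1. The fit without animal 84 was added after seeing the data. Nothing states that litters were separate, and the tests take the animals as independent. If some were litter mates, the p-values could be too small. Acer1, Sphk1 and Sgpp2 were not analysed here.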

Additional observations from a re-analysis of the deposited data

How the results depend on the processing

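The shares of genes associated, of those tested, moved under several alternatives. With the first 3 principal components they were 0.439% for Asah1, 0.0298% for Asah2, 0.126% for Acer2, 2.51% for Sgpp1, 0% for Sgpl1, 0.0446% for Cerk and 1.3% for Ugcg, and 0 pairs passed. With the 8 marker list scores they were 0.0446% for Asah1, 0.394% for Asah2, 0.379% for Acer2, 0.0149% for Sphk2, 0.655% for Sgpp1, 0.00744% for Sgpl1, 0% for Cerk and 0% for Ugcg, and 0 pairs passed. Without the 2 animals farthest from the median they were 0.0595% for Asah2, 0.0223% for Acer3, 8.36% for Sgpl1, 0% for Cerk and 0% for Ugcg, and 1 pair passed. The title-number run as a covariate gave 0.0223% for Acer3, and genes with a mean of at least 1 gave 0.045%. Without animal 84 the shares were 3.52% for Asah1, 9.47% for Sgpl1, 0.119% for Cerk and 0.0521% for Ugcg, and 1 pair passed. The cause of these moves was not tested. The other counts of genes associated with each of the 9, and of pairs, stayed within 1.5 times those in the report. Like counts can still be made up of different genes. Without the 2 farthest animals 724 genes passed with Asah1, of which 445 were among the 790 of the report. With Sgpp1 244 passed in that fit, of which 132 were among the 182 of the report. Counts within gene lists were recomputed only without animal 84. In the test between runs, 0 of the 9 genes passed under the 6 alternatives tried for that test.

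By longest transcript the log2 levels per kilobase were 2.52 for Asah1, 0.68 for Asah2, -0.21 for Acer2, 1.93 for Sphk2, 2.52 for Sgpp1, 1.24 for Sgpl1 and 1.35 for Ugcg. By median coding transcript they were 3.31 for Asah1, 1.46 for Asah2, -0.19 for Acer2, -0.57 for Acer3, 2.29 for Sphk2, 2.55 for Sgpp1, 3.70 for Sgpl1, 0.61 for Cerk and 1.35 for Ugcg.

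Of the 77 slopes of named genes refitted under the alternatives, those that changed sign had not passed, and they were slopes of Cers1, Cers2, Rpl18 and Tsku. Calls lost with the same sign numbered 38 with the marker scores, 33 with principal components, 29 without the 2 farthest animals, 17 without animal 84, 9 with the run, and 1 each on the log2(value + 1) scale and after the filter. With 3 principal components Cers1 turned to 0.04 on Acer2, 0.02 on Sgpp1 and 0.04 on Sgpl1, and Cers2 to -0.02 on Asah1, -0.03 on Acer3 and -0.02 on Cerk. With the marker scores Cers1 turned to 0.0032 on Asah1, 0.02 on Sphk2, 0.01 on Sgpp1 and 0.0032 on Sgpl1, and Cers2 to -0.0036 on Asah1, -0.02 on Acer2, -0.01 on Acer3 and -0.01 on Cerk. Rpl18 on Sphk2 turned to -0.0033 in the same fit. Without the 2 farthest animals Cers2 on Asah1 was -0.01 and Cers1 on Sgpl1 0.0023, and Tsku on Acer3 was 0.0025. Without animal 84 Cers2 on Acer3 was -0.004, and Cers1 was 0.0031 on Sphk2, 0.0032 on Sgpp1 and 0.0045 on Sgpl1. With the run, Cers1 on Sphk2 was 0.0011. The depth of the libraries is unknown, which limits what can be said of Acer2, whose per-million values were the lowest of the 9. No paired analysis was possible because there is 1 group.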
